A study of Mus musculus with 6 samples.

Results

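NF-kB is a family of paired transcription factors that switches on genes of inflammation, survival and antigen presentation. Its subunits, named here by their genes Nfkb1, Nfkb2, Rel, Rela and Relb, are held in the cytoplasm by IkB proteins until a kinase complex marks those inhibitors for destruction. Freed NF-kB then raises the transcription of its own inhibitors, so that the response shuts itself off, and in dendritic cells the same factors drive maturation. The genes described here are the 5 subunit genes and 5 genes that the pathway induces and that feed back on it. The feedback genes are the IkB genes Nfkbia and Nfkbie, the ubiquitin-editing enzyme Tnfaip3 (A20), the adaptor Traf1 and the ubiquitin ligase Birc3 (cIAP2). Their probe sets were found by symbol in the platform annotation, and the list of genes was chosen with earlier results of these data known. Of the 10 genes listed, 9 had a probe set carrying that symbol alone, each with 1 such probe set, and all 9 passed the filter on dim genes, among 13956 genes tested in all. Nfkb1 was not analysed here.

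The cells were CD11c+ dendritic cells grown from bone marrow of female C57BL/6J mice, each of which had received 2000000 marrow cells of the congenic strain B6.SJL-Ptprca. In 1 group the marrow donor was naïve, and in the other its shaved back skin had been exposed to UV radiation of up to 8 kJ/m2, at an age of 6 to 10 weeks unless stated otherwise. Recipient marrow of both groups was cultured for 5 days in GM-CSF and IL-4 at 10 ng/ml each and enriched for CD11c to above 95%, and 3 preparations per group gave 6 whole-transcript arrays. The labels do not say how much of the cultured marrow came from the injected cells, nor whether the 3 preparations of a group came from separate recipients, so p-values measure the spread between preparations, which may be technical. Signals are log2 values, on which a difference of 1 is a doubling, and the number of arrays limits the precision. In such bulk samples, fewer cells that carry a transcript and less transcript per cell cannot be told apart.

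The 6 arrays were alike, with correlations over all probe sets from 0.995 to 0.997. The middle spread of the signals (interquartile range) was wider on the UV-donor arrays, at 3.71 to 3.75, than on the naive-donor arrays, at 3.61 to 3.68. Of 15 dendritic cell markers, 14 were bright enough to be tested, and Itgax, which encodes CD11c, differed by -0.044 (95% interval -0.14 to 0.057). Of the T and NK cell markers 3 of 10 were tested, and of the B cell markers 3 of 9; the others were dim or had no probe set carrying their symbol alone.

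The NF-kB binding consensus (kappa-B motif) was looked for in the start-site windows of these genes, because several of them are textbook targets of the factor they build or restrain. RefSeq windows on GRCm38.p6, reaching from 250 bases before a start site to 50 bases from it on, were held for 8 of the 9 measured genes; Relb had no entry. The motif, 10 bases long and searched on both strands, was found in at least 1 window of 5 of those 8 genes, and in 8.46% of all 32851 windows of this length (9.55% of genes with any window). Windows with a match, 1 for each of the 5 genes, are printed 5′ to 3′ on the strand of the gene. Matched bases are in capitals, overlapping matches run together, and the windows show where the match lies in each gene. Their coordinates are chr19:46304487-46304786 for Nfkb2 (plus strand, the first of 3 windows), chr11:23770920-23771219 for Rel (minus strand), chr12:55492598-55492897 for Nfkbia (minus strand), chr17:45555450-45555749 for Nfkbie (plus strand) and chr10:19015361-19015660 for Tnfaip3 (minus strand, the window of the start site farther upstream).
Nfkb2: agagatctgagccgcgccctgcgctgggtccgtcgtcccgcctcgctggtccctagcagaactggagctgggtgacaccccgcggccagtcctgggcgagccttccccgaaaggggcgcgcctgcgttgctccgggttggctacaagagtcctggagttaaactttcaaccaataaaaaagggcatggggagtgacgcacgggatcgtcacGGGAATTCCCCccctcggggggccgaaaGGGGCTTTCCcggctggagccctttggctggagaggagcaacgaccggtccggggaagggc
Rel: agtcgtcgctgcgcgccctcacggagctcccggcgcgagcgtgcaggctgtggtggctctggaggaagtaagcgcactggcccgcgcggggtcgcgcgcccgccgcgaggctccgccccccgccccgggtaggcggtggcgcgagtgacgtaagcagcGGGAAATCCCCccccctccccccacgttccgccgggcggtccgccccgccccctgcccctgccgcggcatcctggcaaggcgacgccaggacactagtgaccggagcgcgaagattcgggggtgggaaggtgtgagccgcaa
Nfkbia: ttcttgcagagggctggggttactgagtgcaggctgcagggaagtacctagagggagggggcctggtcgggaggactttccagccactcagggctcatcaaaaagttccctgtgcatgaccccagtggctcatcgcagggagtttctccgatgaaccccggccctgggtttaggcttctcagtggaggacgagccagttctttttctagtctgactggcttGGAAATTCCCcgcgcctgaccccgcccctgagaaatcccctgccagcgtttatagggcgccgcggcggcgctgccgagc
Nfkbie: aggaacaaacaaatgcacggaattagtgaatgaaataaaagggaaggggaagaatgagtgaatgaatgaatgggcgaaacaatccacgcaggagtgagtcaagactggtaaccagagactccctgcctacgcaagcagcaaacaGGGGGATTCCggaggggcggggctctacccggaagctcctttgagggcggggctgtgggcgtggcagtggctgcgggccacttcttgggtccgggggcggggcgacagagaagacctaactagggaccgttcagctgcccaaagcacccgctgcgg
Tnfaip3: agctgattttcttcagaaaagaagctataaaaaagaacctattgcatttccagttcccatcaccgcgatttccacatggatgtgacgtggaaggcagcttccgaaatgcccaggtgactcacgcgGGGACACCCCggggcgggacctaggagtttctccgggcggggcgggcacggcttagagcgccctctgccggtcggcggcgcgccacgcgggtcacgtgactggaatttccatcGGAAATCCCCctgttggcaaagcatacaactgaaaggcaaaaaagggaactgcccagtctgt

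In these windows the Nfkbia match GGAAATTCCC began 29 bases before the start site, and that of Nfkbie, GGGGGATTCC, began 106 bases before it. The Rel window held GGGAAATCCC from base -92 on, read on both strands, with a match shifted by 1 base overlapping it. Nfkb2 had GGGAATTCCC from base -39 and GGGGCTTTCC from base -11, and its other 2 windows, which share a stretch, also held the motif. Tnfaip3 had GGGACACCCC from base -125 and GGAAATCCCC from base -12, while the window of its other start site had none. No match was found in the windows of Traf1, Birc3 and Rela. A match is a run of letters and was not tested as a binding site in these cells.

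None of the 9 genes passed the test between recipients of UV-donor and naive-donor marrow. Every one had a slightly higher mean in the UV-donor group, by 0.018 to 0.16 on the log2 scale, or 1.01-fold to 1.12-fold. The widest differences were those of Traf1, Nfkbie and Relb, and the narrowest those of Rela and Tnfaip3. The highest upper bound of any 95% interval was 0.32, or 1.24-fold. A call was an adjusted p under 0.05 in limma (two-sided, Benjamini-Hochberg over all tested genes), which 0 of the 9 reached, against 0.172% of all tested genes. Traf1 and Nfkbie lay under an unadjusted p of 0.05, as did 15.1% of all tested genes. Split by direction, 9.6% of all tested genes lay under it with a higher and 5.49% with a lower UV-donor mean. Positive differences were found in 9 of 9 members and in 50.6% of all tested genes, and the members' median was 0.089 against 0.0016 over all genes. Among genes above the 50th percentile of brightness, where these members lie, 58.6% had positive differences and the median was 0.018. With no filter on dim genes that share was 45%. The members lie from the 64.0th percentile (Relb) to the 98.5th (Nfkbia), and the share at their own brightness was not computed.

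**Figure D1:**
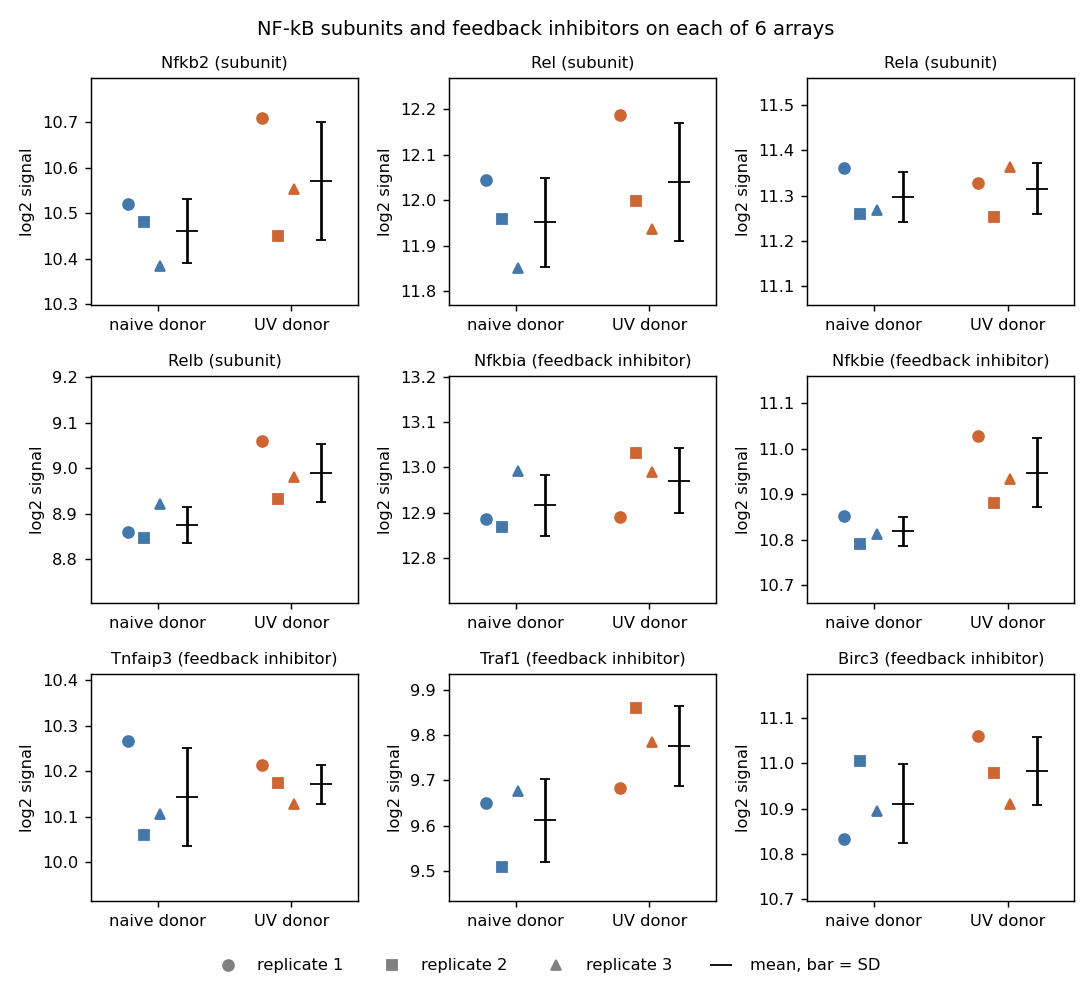
Log2 signal of the 9 measured genes on each array, naive donor in blue and UV donor in orange, with 3 replicates per group; black marks are the group mean and its SD, and each panel spans 0.5 on the log2 axis. The groups overlap in 6 panels and separate in those of Relb, Nfkbie and Traf1.

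Among the subunits, Relb, the partner that works mainly in the alternative branch of the pathway and is needed for dendritic cell development, had the widest difference. Its signals were 8.86, 8.85 and 8.92 on naive-donor replicates 1 to 3 and 9.06, 8.93 and 8.98 on UV-donor replicates 1 to 3 (probe set 10560575). The groups did not overlap, but the lowest UV-donor value stood only 0.012 above the highest naive-donor value. The means were 8.88 ± 0.040 and 8.99 ± 0.064 (SD, n = 3 each), and the difference was 0.12 (SE 0.052, 95% interval -0.0041 to 0.23, limma adjusted p = 0.345). Groups that do not overlap were found for 3 of the 9 members, all higher in the UV-donor group, and for 21.8% of all tested genes. Those higher in the UV-donor group made up 12.4% of all tested genes.

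Nfkb2 encodes p100, which restrains RelB until it is cut to the active p52. Its signals were 10.52, 10.48 and 10.38 on the naive-donor arrays and 10.71, 10.45 and 10.55 on the UV-donor arrays. UV-donor replicate 1 was the highest of all, while UV-donor replicate 2 lay within the naive-donor range. The difference was 0.11 (SE 0.073, 95% interval -0.058 to 0.28, limma adjusted p = 0.509). Without UV-donor replicate 1 it was 0.041.

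Rel encodes c-Rel, the subunit known for its role in interleukin-12 production by dendritic cells. It gave 12.05, 11.96 and 11.85 against 12.19, 12.00 and 11.94, so that UV-donor replicates 2 and 3 both fell inside the naive-donor range. The difference was 0.089 (SE 0.078, 95% interval -0.090 to 0.27, limma adjusted p = 0.620), and 0.016 without UV-donor replicate 1. Rela encodes p65, the main activating subunit of the classical branch, and had the narrowest difference of the 9. Its signals were 11.36, 11.26 and 11.27 against 11.33, 11.25 and 11.36. The groups covered almost the same range, with a difference of 0.018 (SE 0.053, 95% interval -0.10 to 0.14, limma adjusted p = 0.905), whose sign turned without naive-donor replicate 2 (-0.00010) or UV-donor replicate 3 (-0.0060).

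Of the 2 IkB genes, Nfkbie (IkB epsilon) showed the clearer separation. It gave 10.85, 10.79 and 10.81 on the naive-donor arrays and 11.03, 10.88 and 10.93 on the UV-donor arrays (probe set 10445412). All 3 UV-donor values were higher, the nearest pair being 0.028 apart. The means were 10.82 ± 0.032 and 10.95 ± 0.076 (SD, n = 3 each), a difference of 0.13 (SE 0.054, 95% interval 0.0067 to 0.25, limma adjusted p = 0.305). Nfkbia encodes IkB alpha, the fast inhibitor that NF-kB itself induces within its main negative loop. Its signals were 12.89, 12.87 and 12.99 against 12.89, 13.03 and 12.99. The groups overlapped, and the difference was 0.054 (SE 0.058, 95% interval -0.078 to 0.19, limma adjusted p = 0.694).

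Tnfaip3, which removes the ubiquitin chains that relay the signal and whose loss makes dendritic cells overactive, had 10.27, 10.06 and 10.11 on the naive-donor arrays and 10.21, 10.17 and 10.13 on the UV-donor arrays. Its highest and its lowest value were both naive-donor ones. The difference was 0.027 (SE 0.063, 95% interval -0.12 to 0.17, limma adjusted p = 0.879), and its sign turned without naive-donor replicate 2 (-0.015) and with quantile normalization (-0.00031).

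Traf1, an adaptor of TNF receptors that NF-kB induces strongly and that can hold signalling in check or prolong it, had the widest difference of the 9. It gave 9.65, 9.51 and 9.68 against 9.68, 9.86 and 9.78 (probe set 10481949). The groups did not overlap, by a margin of 0.0051 between naive-donor replicate 3 and UV-donor replicate 1. The means were 9.61 ± 0.091 and 9.78 ± 0.088 (SD, n = 3 each), a difference of 0.16 (SE 0.066, 95% interval 0.011 to 0.32, limma adjusted p = 0.301). Birc3, a ligase that helps degrade the kinase of the alternative branch and also protects from cell death, gave 10.83, 11.00 and 10.90 against 11.06, 10.98 and 10.91. UV-donor replicates 2 and 3 lay within the naive-donor range, and the difference was 0.072 (SE 0.063, 95% interval -0.072 to 0.22, limma adjusted p = 0.618).

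**Figure D2:**
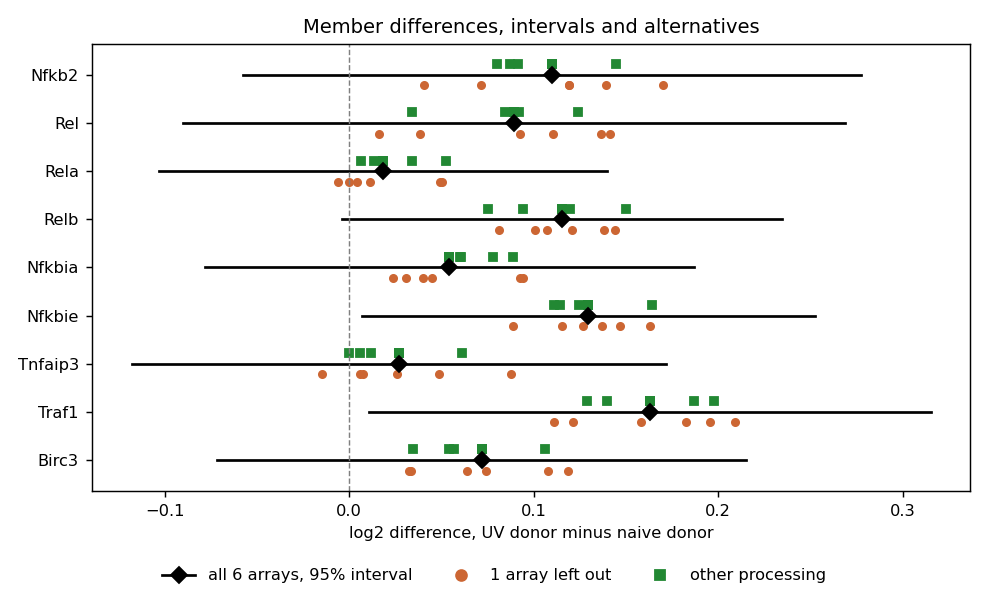
Log2 difference (UV donor minus naive donor) of each gene with its 95% limma interval in black, with 1 array left out in orange and under other processing in green. Intervals of Traf1 and Nfkbie lie above 0, that of Relb reaches -0.0041, and the values of Rela and Tnfaip3 fall on both sides of 0.

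The members did not vary together over the arrays as 1 block. UV-donor replicate 1 was the highest array for 5 of the 9 genes (Nfkb2, Rel, Relb, Nfkbie and Birc3), and naive-donor replicate 2 the lowest for 5. Relative to the naive-donor mean, the 4 subunits averaged 0.17 on UV-donor replicate 1, 0.013 on replicate 2 and 0.062 on replicate 3, against -0.040 to 0.050 on the naive-donor arrays. The 5 feedback genes averaged 0.095, 0.10 and 0.069 there, against -0.034 to 0.018 in the naive-donor group. Subunit averages of the groups thus overlapped, and those of the feedback genes did not. The group differences of these averages were near each other, at 0.083 for subunits and 0.089 for feedback genes. Of the pathway lists described below, averages also lay apart for ligands, kinases, adaptors and other negative regulators. They overlapped for receptors, target genes, ubiquitin enzymes and other IkB proteins. Over the 6 arrays, Pearson correlations between members ran from -0.50 (Rel with Nfkbia) to 0.92 (Relb with Nfkbie), and 26 of 36 pairs were positive. These are descriptions over 6 arrays that share the group difference.

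Without UV-donor replicate 1 the median difference of the 9 members was 0.041 instead of 0.089, and the number under an unadjusted p of 0.05 was 1, which was Traf1. That number was 0 without naive-donor replicate 1, naive-donor replicate 2 or UV-donor replicate 3, and 0 with quantile normalization or cyclic loess. It was 1 with the replicate number as a block, and 3 with array medians centred, with array weights or without UV-donor replicate 2. With array medians centred, which moved the median of all tested genes to 0.036, the members' median was 0.12.

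Markers of other cells and states were also compared between the groups, and some of them were called. All 15 neutrophil markers were tested and 11 had positive differences; their mean signal was 8.90 to 9.04 on the naive-donor arrays and 9.18 to 9.34 on the UV-donor arrays, and Ltf (0.54) and S100a8 (0.77) were called (limma adjusted p = 0.0199 and 0.0365). All 17 tested proliferation genes had positive differences, with a mean signal of 9.88 to 10.20 against 10.32 to 10.75, the highest value being that of UV-donor replicate 1. None of the proliferation genes was called (lowest limma adjusted p = 0.114). Of 13 tested macrophage markers 6 had positive differences, with a mean signal of 10.41 to 10.43 against 10.41 to 10.51, and C1qb (0.63) was called (limma adjusted p = 0.0199). The widest difference in that list was in the other direction, Cd5l at -0.996 (limma adjusted p = 0.0627), and was not called. Of 14 tested dendritic cell markers 11 had positive differences, with a mean of 11.28 to 11.32 against 11.46 to 11.56, and Cd209a (0.59) was called (limma adjusted p = 0.0199). The part of these genes in the members' differences was not tested.

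Genes that mark mature dendritic cells, which carry high NF-kB activity, were at 11.24 to 11.39 on average on the naive-donor arrays and at 11.36 to 11.40 on the UV-donor arrays, so the groups overlapped. Of 19 tested genes 14 had positive differences (median 0.043), none was called, and 2 were under an unadjusted p of 0.05, against 15.1% of all tested genes. The 2 were Icosl, the ligand of the costimulator ICOS, at 0.20 (limma adjusted p = 0.127) and the actin bundler Fscn1 at 0.41 (limma adjusted p = 0.224). The signal transducer Stat4 followed at 0.27.

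**Figure D3:**
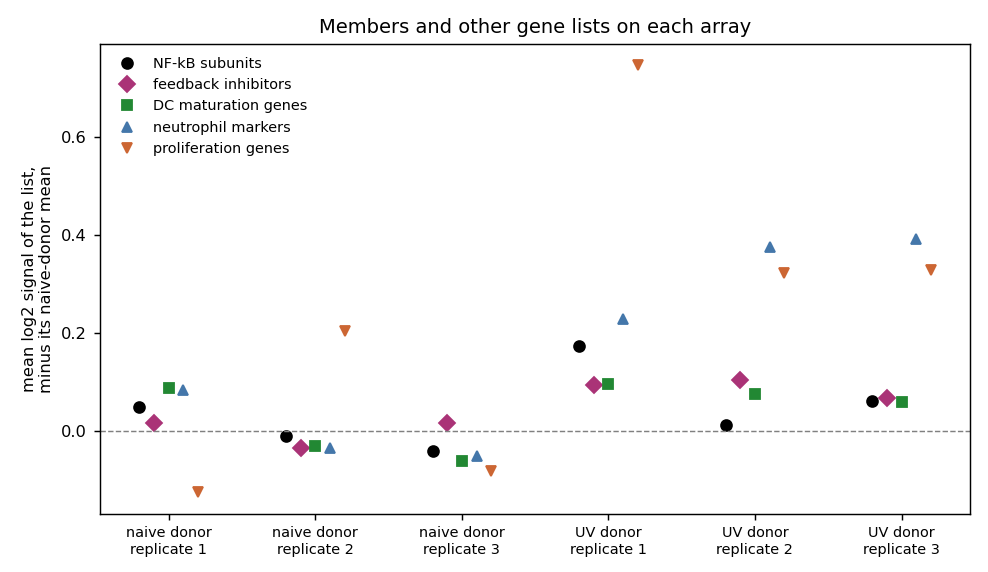
Mean log2 signal of 5 gene lists on each array, minus the list's naive-donor mean. Proliferation genes reach 0.75 on UV-donor replicate 1, the array where the average of the 4 NF-kB subunits is highest (0.17). On naive-donor replicate 2 proliferation genes are at 0.20 and the subunits at -0.010. On UV-donor replicates 2 and 3 proliferation genes are at 0.32 and 0.33, and the subunits at 0.013 and 0.062. Rela alone is highest on UV-donor replicate 3. Neutrophil markers lie at 0.23 to 0.39 on the 3 UV-donor arrays.

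The rest of the pathway was read from 8 lists by role, some of whose genes were named in earlier results of these data. Together they held 113 tested genes, of which 0 were called and 74 had positive differences. Under an unadjusted p of 0.05 were 20 of the 113 (16 higher, 4 lower). The shares over all tested genes were 0.172% called, 50.6% positive and 15.1% under that p. Positive differences made up 65.5% of the 113 genes. Among genes above the 50th percentile of brightness that share was 58.6%, and the median difference was 0.018. The median difference of the 113 genes was 0.045, below the 0.089 of the members and above the 0.0016 of all tested genes. No test was made of that order.

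The ligands that set the pathway off included its widest differences outside the target genes. Tumour necrosis factor, Tnf, had signals of 8.44, 8.35 and 8.50 on the naive-donor arrays and 8.64, 8.85 and 8.75 on the UV-donor arrays, a difference of 0.32 (SE 0.067, limma adjusted p = 0.127). Ltb, the lymphotoxin that engages the alternative branch, differed by 0.29 (limma adjusted p = 0.157), and Il1b by 0.20 (limma adjusted p = 0.153). Groups of all 3 genes were apart, but these genes were named for the smallest p of their list. Groups did not overlap for 21.8% of all tested genes, and for 12.4% with the UV-donor group higher. Of 9 listed ligands 6 were tested, and 4 had positive differences. Il1a and Tnfsf11 went the other way, each at -0.12. None of them is a call.

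Receptors and adaptors held no call. Of 19 tested receptors 14 had positive differences (median 0.074) and 5 negative ones. Smallest in p, in either direction, were the beta-glucan receptor Clec7a (-0.14), the DNA sensor Tlr9 (0.19) and the peptidoglycan sensor Nod2 (0.11), with limma adjusted p-values from 0.316 to 0.374. Of 14 tested adaptors 11 had positive differences (median 0.069) and 3 negative ones, and the smallest in p were Traf5 (0.19), Ticam2 (-0.13) and Ticam1 (0.10). Among the 10 tested genes of the kinase list, which also holds partner proteins of the kinases, Map3k14 had the widest difference. It encodes NIK, which starts the alternative branch that processes Nfkb2 and frees Relb, and its signals were 9.72, 9.66 and 9.71 against 9.94, 9.98 and 9.91. The groups did not overlap, as for 21.8% of all tested genes, and for 12.4% with the UV-donor group higher. The difference was 0.25 (SE 0.046, 95% interval 0.14 to 0.35, limma adjusted p = 0.104), which is no call. Map3k14 was named for the smallest p of its list. Map3k8, a kinase bound by p105, differed by 0.15 and Ikbkb, the catalytic subunit of the IkB kinase, by 0.094.

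The list of ubiquitin enzymes, which holds the ligase parts that tag IkB for destruction and the enzymes that build signalling chains, gave small differences, with 3 of 8 tested genes positive (median -0.0070). Smallest in p were 3 genes of chain building, Ube2n (0.080), Rnf31 (0.044) and Rbck1 (-0.023). The other IkB proteins were split, 2 positive and 3 negative, with the nuclear regulators Nfkbiz at 0.15 (limma adjusted p = 0.308) and Nfkbid at 0.12 and with Nfkbil1 at -0.033. Of 17 other negative regulators 11 had positive differences (median 0.015). Smallest in p were Pdlim2, which sends p65 to degradation, at 0.16, the A20 partner Tnip1 at 0.13 and the deubiquitinase Cyld at 0.17, with limma adjusted p-values from 0.223 to 0.255.

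Target genes went both ways. Of 34 tested, 22 had positive and 12 negative differences (median 0.059), and 10 were under an unadjusted p of 0.05, 7 higher and 3 lower. Over all tested genes 15.1% were under that p, 9.6% higher and 5.49% lower. The neutrophil attractant Cxcl2 came closest to a call, with 7.71, 7.74 and 7.85 on the naive-donor arrays and 8.17, 8.29 and 8.08 on the UV-donor arrays. Its difference was 0.41, or 1.33-fold (SE 0.068, limma adjusted p = 0.0686). The gelatinase Mmp9 differed by 0.33 (limma adjusted p = 0.104) and the stress gene Gadd45b by 0.29 (limma adjusted p = 0.148).

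**Figure D4:**
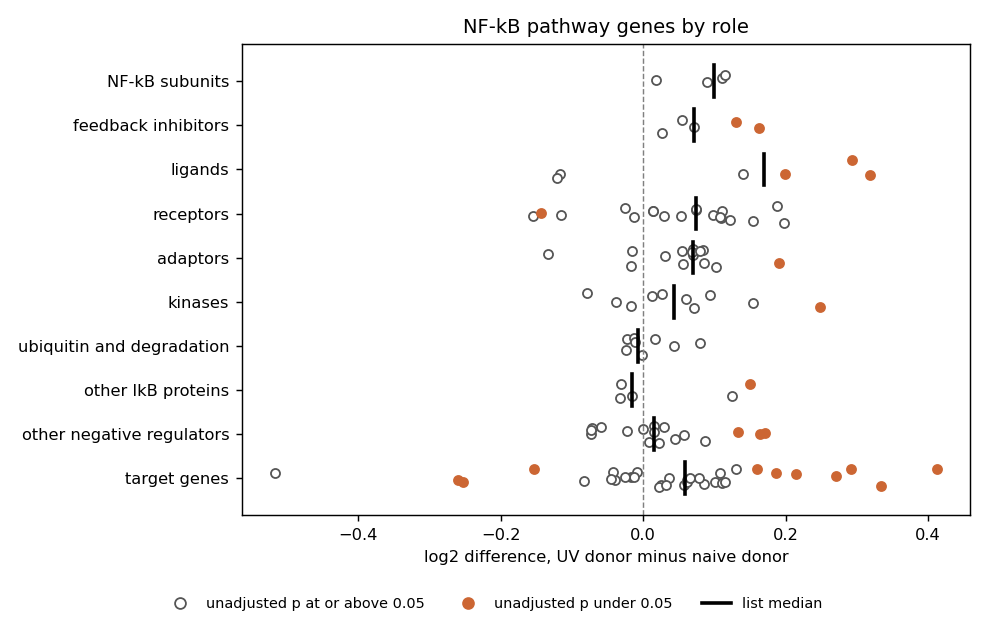
Log2 difference (UV donor minus naive donor) of every tested gene in 10 lists of the pathway, 1 point per gene; filled points have an unadjusted limma p under 0.05 and black bars are list medians. The 4 subunits and 5 feedback inhibitors lie between 0.018 and 0.16, while target genes run from -0.52 to 0.41.

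Genes whose pattern over the 6 arrays was most like that of Traf1, the member of smallest p, were H2-Oa (Pearson r 0.992, Spearman rho 0.943), Nkap (r 0.982, rho 0.943), Marchf1 (r 0.981, rho 0.943), Stard10 (r 0.980, rho 0.829) and Entr1 (r 0.978, rho 1.00). Their differences ran from 0.025 for Entr1 to 0.35 for H2-Oa, and none was called. These genes were searched out for their high r over only 6 arrays, so the values are no test. With predicted genes and small RNAs skipped, 30 tested genes outside the list had r of at least 0.95.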

How the data were processed

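Each of 6 arrays gave 1 value per probe set in the deposited table. From their range (2.52 to 14.6), the deposited numbers are taken as log2 signals. RMA, oligo and limma are named in the submitters' processing notes, with no versions; the summary level, scan dates and batches are not given in the sources used here. Values were used as deposited. Of 35556 probe sets, 21789 carried 1 symbol in the platform annotation, 1621 carried several and 12146 none; the last 2 kinds were left out. Each of 19938 genes was represented by its brightest probe set on average over the 6 arrays, and genes below the 30th percentile of mean signal were left out, leaving 13956.

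The comparison, UV-donor minus naive-donor, used lmFit and eBayes of limma 3.58.1 (R 4.3.3). With 3 arrays a group, exact permutation reaches no p below 0.1. The fit was tested on simulated data with changes wider than any member's difference, so that test does not cover differences of the members' size. The members and gene lists were chosen with earlier results of these data known. Named were all members, the 3 genes of smallest p of each pathway, maturation and immediate early list, leading markers, and the 5 genes most like the member of smallest p. Alternatives were a replicate block, other filters, centred medians, quantile and cyclic loess normalization, array weights, a robust prior with an intensity trend, averaged probe sets and leaving out each array. Sequences are from RefSeq, GRCm38.p6, matched by symbol.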

Additional observations from a re-analysis of the deposited data

How the results depend on the processing

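Of 135 member differences over 15 alternatives, 131 kept their sign and none was called; 7 of the 9 genes kept their sign throughout, and the lowest limma adjusted p was 0.175 (Traf1, centred medians). With single arrays left out, Rela ran from -0.0060 to 0.050 and Tnfaip3 from -0.015 to 0.088; Tnfaip3 was -0.00031 with quantile normalization. The count of members under an unadjusted p of 0.05 was 1 with the replicate block, 0 with quantile normalization, 0 with cyclic loess, 3 with centred medians, 3 with array weights and 0 to 3 with single arrays left out. Their median difference ran from 0.041 to 0.12 with single arrays left out. The 24 calls among all genes became 0 with the replicate block, 43 with centred medians, 45 with an intensity trend and robust prior, 43 with array weights and 1 to 32 with single arrays left out; the cause was not tested. Same-numbered arrays did not pair: their deviations from group means correlated at -0.13, -0.22 and 0.15. No member was called with or without the block. As the block left 0 calls among all genes, the members' calls cannot show what pairing would change.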

Other observations

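Immediate early genes, which respond within minutes to handling and to signals that also reach NF-kB, did not share a direction. Of 18 tested genes, 9 had positive and 9 negative differences (median 0.012), and none was called by limma. Under an unadjusted p of 0.05 were 3 of them, against 15.1% of all tested genes. Ier2 differed by 0.21 (limma adjusted p = 0.241), the RNA-decay factor Zfp36 by 0.13 (limma adjusted p = 0.270) and Egr1 by -0.22 (limma adjusted p = 0.319). The mean signal of the list was 10.24 to 10.27 on the naive-donor arrays and 10.22 to 10.30 on the UV-donor arrays.

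Of 7 progenitor markers 6 were tested, and of 9 eosinophil, mast cell and basophil markers 3. The others were dim or had no probe set carrying their symbol alone. Every tested gene of both lists had a positive difference, as did 50.6% of all tested genes. The narrowest differences were 0.029 for Myb among progenitor markers and 0.089 for Hdc in the other list. The widest were those of Cd34, at 0.76 (limma adjusted p = 0.120), and Prg2, the eosinophil major basic protein, at 0.75 (limma adjusted p = 0.105). Neither is a call.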
